A study of Homo sapiens with 6 samples.

Results

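RAS signaling through the kinases RAF, MEK and ERK switches on a set of genes, some of which in turn restrain it. The 10 genes described here are readouts of ERK, and some of them are its feedback inhibitors. DUSP4, DUSP5 and DUSP6 encode MAPK phosphatases, SPRY2 and SPRY4 encode Sprouty proteins, SPRED1 and SPRED2 encode Sprouty-related inhibitors, ETV4 and ETV5 encode ETS transcription factors, and PHLDA1 encodes a pleckstrin homology-like protein induced by mitogens. They were chosen by symbol as transcriptional readouts of ERK, and all 10 were found among the 19469 genes of the deposited count table.

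The cells sequenced were of the human line L3.6pl, which comes from a lymph node metastasis of a pancreatic cancer of adenosquamous type, after sorting by FACS on surface L1CAM, a cell adhesion molecule. L1high cells (labelled L1CAM_POSITIVE) and L1low cells (labelled L1CAM_NEGATIVE) gave 3 libraries each, and all came from 1 cell line grown in DMEM with serum and left untreated. The sample labels write the line as L6.6pl. Nothing in the labels says whether the libraries of a group came from separate cultures or sorts, so the p-values measure the spread between these libraries only. The authors tabulated this comparison without L1high replicate 3 and gave no reason. It was therefore made first over the other 5 libraries and then over all 6, and the log2 fold change (log2FC) is L1low over L1high, so that positive values are higher in L1low cells. Tests are quasi-likelihood tests of edgeR with Benjamini-Hochberg adjustment over all genes, unless another is named.

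Total counts ran from 16334610 in L1high replicate 3 to 21064685 in L1high replicate 1. L1CAM stood at 84.0, 69.8 and 89.5 CPM (counts scaled to a common library size with TMM factors) in L1high replicates 1, 2 and 3 and at 17.7, 23.7 and 20.0 in the L1low libraries, with a log2FC of -1.90. All 5 epithelial markers (EPCAM, CDH1, KRT8, KRT18 and KRT19) and all 5 squamous markers (TP63, KRT5, KRT14, KRT6A and DSG3) were in the table. Of these, TP63 (log2FC 1.09), KRT19 (0.69) and KRT14 (0.50) rose and KRT6A (-0.58) and EPCAM (-0.37) fell in L1low cells, and their part in the results below was not tested. Of 7 fibroblast markers only LUM and COL3A1 were in it, of 6 leukocyte markers only CD68, and of 4 endothelial markers only PECAM1. LUM, which rose (log2FC 0.74), ran from 78.1 to 89.8 CPM in L1high and from 129 to 150 in L1low libraries, whereas the defining fibroblast markers COL1A2, DCN, PDGFRA and PDGFRB were not in the table.

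MAPK phosphatases remove the phosphates that activate ERK and its relatives. DUSP6 is a cytoplasmic phosphatase selective for ERK, and DUSP4 and DUSP5 are nuclear. Sprouty and SPRED proteins act upstream, on the activation of RAS and RAF. ETV4 and ETV5 are factors of the PEA3 subfamily that carry the ERK signal into transcription, and the repressor Capicua, encoded by CIC, holds ETV4, ETV5 and DUSP6 down until ERK inactivates it. In pancreatic cancer, several of these genes are used as a measure of pathway output.

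DUSP6 was the gene of the 10 called over the 5 libraries, and DUSP4 was also called, in the other direction, over all 6. Its promoter is shown because it holds the sequence that Capicua binds. The stretch covers the minus strand of chr12:89352492-89352751 on GRCh38.p14 (RefSeq), from 250 bases before the start site at 89352501 to position 10 of the transcript, with the Capicua octamers in capitals.

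DUSP6: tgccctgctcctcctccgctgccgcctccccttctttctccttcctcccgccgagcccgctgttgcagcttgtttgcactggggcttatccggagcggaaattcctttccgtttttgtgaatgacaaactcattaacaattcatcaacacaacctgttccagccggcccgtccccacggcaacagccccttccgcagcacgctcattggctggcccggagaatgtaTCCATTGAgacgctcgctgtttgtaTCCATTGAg

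Read on the other strand, both capital runs are TCAATGGA, at positions -24 to -17 and 2 to 9 counted from the start site as 1. RefSeq windows from 250 bases before to 50 bases from the start site were matched for 6 of the 10 genes, in 9 windows (3 for SPRY2, 2 for SPRED2 and 1 each for DUSP6, SPRY4, SPRED1 and PHLDA1). DUSP4, DUSP5, ETV4 and ETV5 were not matched. Both strands were searched for the Capicua words TGAATGAA, TGAATGGA, TCAATGAA and TCAATGGA, and DUSP6 alone of the 6 held one. Of all 35116 windows, 3.77% held such a word and 0.327% held 2 or more. The ETS words CCGGAAGT, CCGGAAGC, CAGGAAGT and CAGGAAGC (13.5% of all windows) and the AP-1 words TGACTCA and TGAGTCA (4.95%) were found in 1 of the SPRED2 windows, and the EGR words GCGTGGGCG and GCGGGGGCG (5.77%) in 1 of the SPRY2 windows. No window of the 6 genes held the cyclic AMP response word TGACGTCA (1.85%). These matches describe letters and are not binding data.

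Among the phosphatases, DUSP6 (ENSG00000139318, chromosome 12 from 89347235 to 89352501, minus strand, all positions on GRCh38) stood at 265, 276 and 236 CPM in L1high replicates 1, 2 and 3 and at 395, 403 and 366 CPM in L1low replicates 1, 2 and 3. Every L1low library lay above every L1high library, with a wide gap between the groups. DUSP6 rose 1.44-fold in L1low cells (95% interval from 1.29 to 1.62), a log2FC of 0.53 with a standard error of 0.08 (95% interval from 0.37 to 0.70, adjusted p = 0.00099, edgeR). Over all 6 libraries the log2FC was 0.58 (adjusted p = 0.00051, edgeR). Calls at an adjusted p under 0.05 were made for 7.57% of all genes over the 5 libraries (4.41% higher and 3.15% lower in L1low cells) and for 7.95% over all 6 libraries (4.58% higher and 3.37% lower). The call of DUSP6 was kept under all 15 alternatives tried.

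The first part of DUSP6 is overlapped on the opposite strand by a long noncoding RNA gene, ENSG00000274021, which stood at 58.1, 45.2 and 58.1 CPM in the L1high libraries and at 79.8, 88.4 and 92.7 CPM in the L1low libraries. It too rose (log2FC 0.76, standard error 0.11, adjusted p = 0.0012, edgeR). Whether reads were counted by strand is not given in the sources used here, and without it the reads of both genes cannot be told apart where they overlap. The counts were from 3869 to 7232 for DUSP6 and from 928 to 1641 for the antisense gene.

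DUSP4 (ENSG00000120875, minus strand of chromosome 8 from 29333064 to 29350684) went the other way, by little. It stood at 412, 390 and 409 CPM in the L1high libraries and at 334, 358 and 343 CPM in the L1low libraries, so that all L1low libraries lay below all L1high libraries. The log2FC was -0.21 (standard error 0.07, 95% interval from -0.36 to -0.053), and over the 5 libraries it missed the threshold (adjusted p = 0.10, edgeR). Over all 6 libraries DUSP4 was called lower (log2FC -0.23, adjusted p = 0.041, edgeR), as it was without L1high replicate 2 (-0.25, adjusted p = 0.032) and with the replicate number as a block over all 6 libraries (-0.23, adjusted p = 0.032). The lowest and highest adjusted p under any alternative were 0.032 and 0.23.

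DUSP5 (ENSG00000138166, plus strand of chromosome 10 from 110497907 to 110511533) stood at 217, 199 and 212 CPM in the L1high libraries and at 217, 222 and 230 CPM in the L1low libraries. The groups touched at their edge, and the log2FC of 0.11 (95% interval from -0.054 to 0.27, adjusted p = 0.41, edgeR) was not called. A rise as large as that of DUSP6 lay outside this interval. The 3 phosphatases thus gave 1 call over the 5 libraries and 2, in opposite directions, over all 6.

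**Figure D1:**
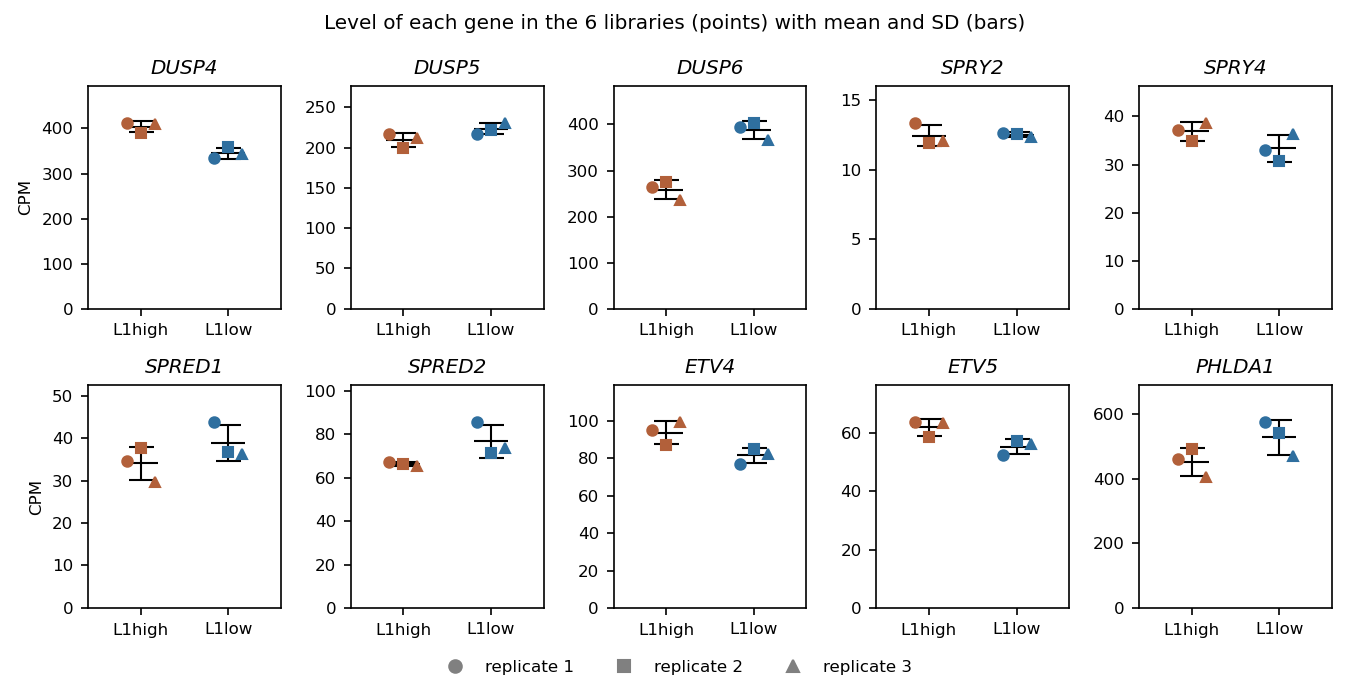
CPM of the 10 genes in each of the 6 libraries. Points are libraries, with the replicate number as the shape, bars are the mean and SD (n = 3 per group), and each axis starts at 0. DUSP6 has a clear gap between the groups, from at most 276 CPM in L1high to at least 366 CPM in L1low libraries. DUSP4 has one in the other direction, from at least 390 CPM in L1high to at most 358 CPM in L1low libraries.

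None of the 4 Sprouty and SPRED genes was called by edgeR, either over the 5 libraries or over all 6, and none was called by DESeq2. Without adjustment, 1 of them had a p under 0.05 over the 5 libraries. SPRY2 (ENSG00000136158, chromosome 13 from 80335976 to 80341126), which encodes a Sprouty protein induced by growth factor receptors, stood at 13.3, 11.9 and 12.1 CPM in the L1high libraries and at 12.7, 12.5 and 12.4 CPM in the L1low libraries. The L1low values lay within the L1high range, and the log2FC was -0.0045 (95% interval from -0.27 to 0.27). It is the lowest of the 10 genes in counts, with 198 to 283 per library.

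SPRY4 (ENSG00000187678, chromosome 5 from 142310427 to 142326455) stood at 37.2, 34.8 and 38.6 CPM in the L1high libraries and at 33.0, 30.8 and 36.3 CPM in the L1low libraries. The groups overlapped, with a log2FC of -0.10 (95% interval from -0.32 to 0.12). The antisense gene SPRY4-AS1 overlaps it and was near 1 CPM, with 8 to 27 counts per library.

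SPRED1 (ENSG00000166068, chromosome 15 from 38252836 to 38357249), the gene mutated in Legius syndrome, stood at 34.7, 37.6 and 29.7 CPM in the L1high libraries and at 43.7, 36.6 and 36.1 CPM in the L1low libraries, and the groups overlapped (log2FC 0.11, 95% interval from -0.13 to 0.35). SPRED2 (ENSG00000198369, chromosome 2 from 65310851 to 65432637) stood at 67.5, 66.2 and 65.6 CPM in the L1high libraries and at 85.5, 71.3 and 73.8 CPM in the L1low libraries. All L1low values of SPRED2 were above the L1high values, which lay close together, while L1low replicate 1 stood apart at the top. Its log2FC was 0.21 (95% interval from 0.0056 to 0.42, adjusted p = 0.20, edgeR), and before adjustment its p was under 0.05. The log2FC of SPRED2 was 0.125 without L1low replicate 1 (adjusted p = 0.45, edgeR). It was 0.26 without L1low replicate 2 and 0.24 without L1low replicate 3.

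Neither ETV4 nor ETV5 was called, and in both the L1low libraries were the lower ones. ETV4 (ENSG00000175832, chromosome 17 from 43527844 to 43579620) stood at 95.3, 86.9 and 99.3 CPM in the L1high libraries and at 76.9, 85.3 and 82.4 CPM in the L1low libraries. The groups did not overlap, though L1high replicate 2 and L1low replicate 2 nearly met. Its log2FC was -0.15 (95% interval from -0.33 to 0.032, adjusted p = 0.30, edgeR), and with L1high replicate 3 it was -0.20 (adjusted p = 0.14, edgeR).

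ETV5 (ENSG00000244405, chromosome 3 from 186046314 to 186110318) stood at 63.5, 58.5 and 63.4 CPM in the L1high libraries and at 52.3, 57.1 and 56.3 CPM in the L1low libraries. Again the groups lay just apart, with a log2FC of -0.14 (95% interval from -0.33 to 0.054, adjusted p = 0.38, edgeR). For both ETS genes a rise of the size of that of DUSP6 lay outside the interval. ETV4 lies within the span of DHX8 on the opposite strand, and ETV5 overlaps DGKG on its own strand. DGKG was not called, with a log2FC of -0.25 and with its L1low libraries below its L1high libraries.

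PHLDA1 (ENSG00000139289, chromosome 12 from 76025447 to 76031776) stood at 460, 491 and 405 CPM in the L1high libraries and at 574, 541 and 470 CPM in the L1low libraries. Replicate 3 was the lowest library in both groups, and the groups overlapped. The log2FC was 0.16 (95% interval from -0.033 to 0.35, adjusted p = 0.30, edgeR) over the 5 libraries. With the replicate number as a block over all 6 libraries it was 0.22 and was called (adjusted p = 0.031, edgeR). PHLDA1-AS1, which overlaps PHLDA1 on the opposite strand, rose (log2FC 0.35, adjusted p = 0.028, edgeR) from between 77.7 and 92.0 CPM in L1high to between 99.3 and 108 CPM in L1low libraries.

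**Figure D2:**
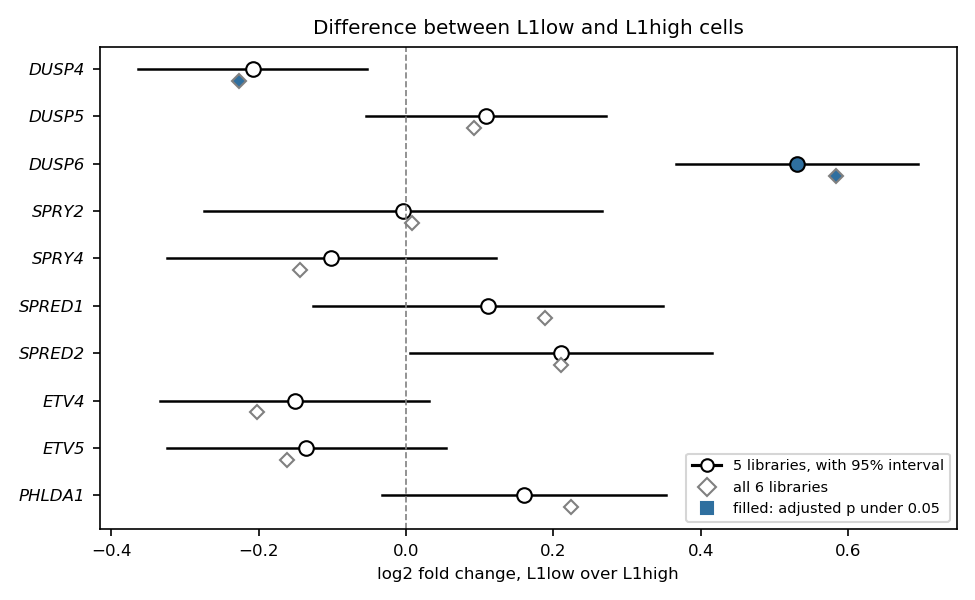
Log2 fold change of the 10 genes, L1low over L1high, over 5 libraries (circles, with 95% interval) and over all 6 (diamonds). Filled symbols have an adjusted p under 0.05. DUSP6 lies at 0.53 and 0.58, and the other 9 genes lie between -0.23 and 0.22 in either fit.

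Over the 10 genes, 1 was called higher and 0 lower over the 5 libraries, in edgeR and in DESeq2 alike. Without adjustment 2 had a p under 0.05 with higher levels (DUSP6 and SPRED2) and 1 with lower levels (DUSP4), where 23.3% of all genes had such a p in either direction. Their median log2FC was 0.052, beside 0.0016 for all genes tested, with 5 genes above 0 and 5 below. By raw position of the libraries, 5 of the 10 did not overlap between groups, 2 of them higher (DUSP6 and SPRED2) and 3 lower (DUSP4, ETV4 and ETV5) in L1low cells, where 28.8% of all genes did not overlap (15.2% higher and 13.7% lower). With RLE in place of TMM scaling, DUSP5 also lay apart, on the higher side. The genes thus lay on both sides of 0 and, DUSP6 aside, close to it.

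DUSP6 was also set against each of the other 9 genes within the same library, a comparison chosen after the values were seen. The ratio of DUSP6 to DUSP4 in CPM was 0.643, 0.707 and 0.576 in the L1high libraries and 1.18, 1.13 and 1.07 in the L1low libraries. On the log2 scale the mean ratio was -0.64 ± 0.15 in L1high and 0.17 ± 0.076 in L1low cells (SD, n = 3 each), a difference of 0.81. Relative to ETV4 and ETV5 the differences were 0.79 and 0.75, and the smallest, relative to PHLDA1, was 0.36. In all 9 ratios the 3 L1low libraries lay above the 3 L1high libraries. With 3 libraries against 3, an exact two-sided permutation test cannot go below p = 0.10, which each of the 9 ratios reached, so it decides nothing here. All 9 ratios share DUSP6, which already lay apart between the groups, and they are not 9 separate results.

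**Figure D3:**
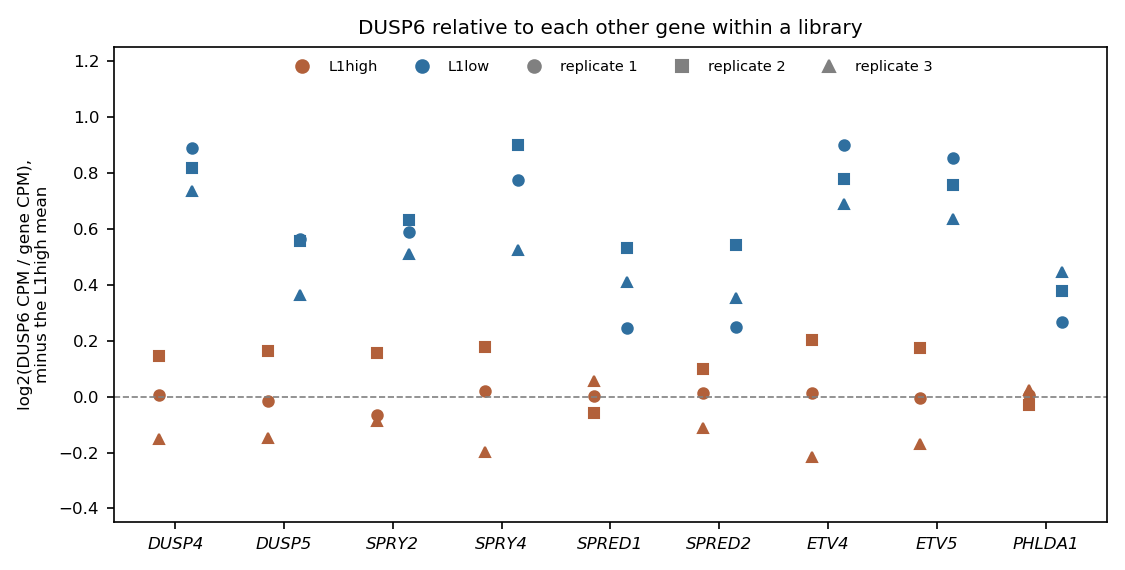
Log2 ratio of DUSP6 CPM to that of each other gene, in each library, with the L1high mean of the ratio subtracted. Colours are the groups and shapes the replicate numbers. All L1low points lie above all L1high points in each of the 9 ratios, with mean differences from 0.36 (PHLDA1) to 0.81 (DUSP4).

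Levels of different genes were compared as CPM per kb of exon. In L1high cells the order was DUSP5 (82.6 ± 3.51 CPM per kb), PHLDA1 (76.5 ± 7.38), DUSP6 (67.0 ± 5.36), DUSP4 (55.5 ± 1.63), ETV4 (26.7 ± 1.79), SPRED2 (12.1 ± 0.171), ETV5 (10.7 ± 0.498), SPRY4 (5.63 ± 0.295), SPRED1 (4.39 ± 0.515) and SPRY2 (3.87 ± 0.243; SD, n = 3 for each). Libraries of DUSP5 and PHLDA1, of PHLDA1 and DUSP6, and of SPRED1 and SPRY2 overlapped, and the other neighbours did not. In L1low cells DUSP6 came first at 101 ± 5.10 CPM per kb, before PHLDA1 (89.4 ± 9.06), DUSP5 (88.0 ± 2.68) and DUSP4 (47.5 ± 1.65; SD, n = 3 for each), and the order below DUSP4 was as in L1high cells. The libraries of DUSP6 and PHLDA1, of PHLDA1 and DUSP5, and of SPRY4 and SPRED1 overlapped there. With the length of the canonical transcript in place of all exons, DUSP6 still ranked 1 in L1low cells but 4 in L1high cells, after DUSP4. ETV5 then came before SPRED2 in L1high cells, and DUSP5 before PHLDA1 in L1low cells. SPRY2 came before SPRED1 in both groups, so the order depends in part on the length used.

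Over the 6 libraries, those that ran most like DUSP6 in log2 CPM included ITGB6 (Pearson's r = 0.998), CAV1 (0.996), RCC2 (0.993) and ZFP36L2 (0.993), out of 12711 genes with a mean log2 CPM of 3 or more. The libraries fall into the sorted groups, so these coefficients are a description of libraries that share their group, with no p. CAV1, which encodes caveolin, stood at 87.9 to 100.3 CPM in the L1high libraries and at 149.99 to 172 CPM in the L1low libraries, with replicate 3 the lowest of each group, as for DUSP6. RCC2, a chromosomal regulator, followed the same order of groups with a small difference (log2FC 0.14) and was not called, whereas ITGB6, CAV1 and ZFP36L2 rose.

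Around these 10 genes, 70 of 71 other genes of the pathway, in 6 lists, were in the table. SPRY3 was not in it. Over the 5 libraries 13 of the 70 were called higher and 1 lower in L1low cells, or 20.0%, where 7.57% of all genes were called. Over all 6 libraries 14 were called higher and 1 lower. DESeq2 called 12 higher and 1 lower, and gave no adjusted p for SPRED3. These shares are not like for like. All genes include 6769 with a mean log2 CPM of up to 3, where the median standard error was 0.26. It was 0.13 for those from 3 to 5, and most of the 70 lay above 3. The lists were also chosen with earlier results of these data known. The difference between lists, or from all genes, was not tested. CPM below is of all 6 libraries, whereas log2FC and adjusted p are over the 5, without L1high replicate 3, unless stated. Where a call below was lost without an L1high library, the fit was of all 6 libraries without it, so that L1high replicate 3 stood in.

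Of 22 genes of the cascade from adaptors and RAS to ERK and its RSK substrates, 2 were called higher and 0 lower in edgeR and in DESeq2, with 5 higher and 1 lower at a p under 0.05 before adjustment. SHC1, the adaptor that links receptors to GRB2 and SOS, rose from 427, 394 and 434 CPM in the L1high libraries to 599, 593 and 636 CPM in the L1low libraries (log2FC 0.58, adjusted p = 4.2e-04, edgeR). RRAS, a RAS relative that acts on integrins, rose from 23.8 ± 1.54 to 33.8 ± 3.03 CPM (SD, n = 3 each) (log2FC 0.55, adjusted p = 0.0095, edgeR). Its call was lost without L1high replicate 1 (0.46, adjusted p = 0.064). SHC1 had a log2FC of 0.54 and RRAS of 0.51 over all 6 libraries. The scaffold KSR1 (0.15) was among the most abundant genes of the list not called.

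Among 8 RAS GTPase-activating proteins, which switch RAS off, DAB2IP was the 1 called. It rose from 50.6, 42.6 and 53.9 CPM in the L1high libraries to 79.0, 83.5 and 80.3 CPM in the L1low libraries (log2FC 0.80, adjusted p = 2.0e-04, edgeR). DAB2IP had a log2FC of 0.72 over all 6 libraries. NF1 (0.21) and RASA1 (0.046) were the most abundant not called.

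None of the 7 other MAPK phosphatases was called in the fit of the 5 libraries, in that of all 6 or by DESeq2. Before adjustment, 2 higher and 0 lower had a p under 0.05 over the 5 libraries. There was 1 called higher by edgeR's exact test, 1 with the replicate block over the 5 libraries and 1 without L1low replicate 3. DUSP1, the immediate early phosphatase of JNK, p38 and ERK, had the highest CPM of these at 811, 769 and 778 CPM in L1high and 754, 787 and 784 CPM in L1low libraries (log2FC -0.019). DUSP7, like DUSP6 a cytoplasmic phosphatase of ERK, had a log2FC of 0.33 (adjusted p = 0.058, edgeR).

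Of 7 other feedback inhibitors in the table, edgeR called 3 higher and 0 lower over the 5 libraries. Before adjustment 4 higher and 0 lower had a p under 0.05. DESeq2 called 2 higher and 0 lower, and gave no adjusted p for SPRED3. ERRFI1 encodes MIG6, which binds and inhibits EGFR. It rose from 74.6, 79.4 and 74.5 CPM in the L1high libraries to 129, 128 and 132 CPM in the L1low libraries (log2FC 0.76, adjusted p = 7.0e-05, edgeR), and the groups were far apart. LRIG1, which encodes a membrane protein that promotes the breakdown of EGFR family receptors, rose from 28.5, 26.1 and 31.4 to 37.1, 40.1 and 40.0 CPM (log2FC 0.52, adjusted p = 0.0069, edgeR). SPRED3, a relative of SPRED1 and SPRED2, was near 1 CPM in L1high (1.08, 0.779 and 1.28) and near 2 in L1low libraries (1.76, 2.06 and 2.37), with a log2FC of 1.15 (standard error 0.31, adjusted p = 0.044). The call of LRIG1 was lost without L1high replicate 1 (0.44, adjusted p = 0.0697) and without L1low replicate 2 (0.502, adjusted p = 0.060). That of SPRED3 was lost without L1high replicate 1 (1.02), L1high replicate 2 (0.81), L1low replicate 2 (1.15) or L1low replicate 3 (1.04), with adjusted p from 0.089 to 0.14, edgeR, and with the replicate block over the 5 libraries (1.04, adjusted p = 0.061). ERRFI1 had a log2FC of 0.76, LRIG1 of 0.45 and SPRED3 of 0.99 over all 6 libraries. PEBP1 (-0.065) and SPRY1 (0.24) were the most abundant of the list not called.

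Of 12 ETS, Capicua and SRF regulators, 4 were called higher and 0 lower by edgeR and by DESeq2 over the 5 libraries, with 5 higher and 0 lower at a p under 0.05 before adjustment. CIC rose from 108, 90.8 and 120 CPM in the L1high libraries to 144, 157 and 152 CPM in the L1low libraries (log2FC 0.61, adjusted p = 0.0012, edgeR). SRF, the serum response factor that works with ETS partners of the ELK family, rose from 44.7, 42.0 and 54.0 to 65.2, 63.8 and 63.9 CPM (log2FC 0.58), ETS2 rose (0.48), and so did ERF, which encodes an ETS repressor that ERK exports from the nucleus (0.39, adjusted p = 0.013, edgeR). Without L1high replicate 1 the calls of SRF (0.42, adjusted p = 0.080) and ERF (0.37, adjusted p = 0.061) were lost, and without L1low replicate 2 that of ERF (0.34, adjusted p = 0.12). CIC had a log2FC of 0.51, SRF of 0.46, ETS2 of 0.45 and ERF of 0.35 over all 6 libraries. ELK4 (-0.020) and ETV3 (0.11) were the most abundant not called. ETV1, the PEA3 factor beside ETV4 and ETV5, named after its values were seen, had a log2FC of -0.099.

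Of 14 other genes known to respond to ERK, 3 were called higher and 1 lower over the 5 libraries. EPHA2, which encodes an ephrin receptor, rose (log2FC 0.61, adjusted p = 0.0012, edgeR), from 174, 144 and 191 CPM in the L1high libraries to 237, 250 and 236 CPM in the L1low libraries. The immediate early genes EGR1 (0.32, adjusted p = 0.021) and FOS (0.25, adjusted p = 0.041) rose by less. LIF, which encodes a cytokine of the interleukin 6 family, fell by 0.84 on the log2 scale (adjusted p = 3.3e-05, edgeR), from 183, 166 and 187 CPM to 92.7, 97.7 and 100.4 CPM. The call of EGR1 was lost without L1high replicate 1 (0.33, adjusted p = 0.056) and without L1low replicate 2 (0.28, adjusted p = 0.16), and that of FOS without L1high replicate 1 (0.25, adjusted p = 0.12), L1high replicate 2 (0.19, adjusted p = 0.071) or L1low replicate 2 (0.24, adjusted p = 0.22), and with upper-quartile scaling (0.25, adjusted p = 0.051). EPHA2 had a log2FC of 0.51, EGR1 of 0.32, FOS of 0.23 and LIF of -0.88 over all 6 libraries. MYC (0.070) and HMGA1 (-0.021) were the most abundant not called.

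**Figure D4:**
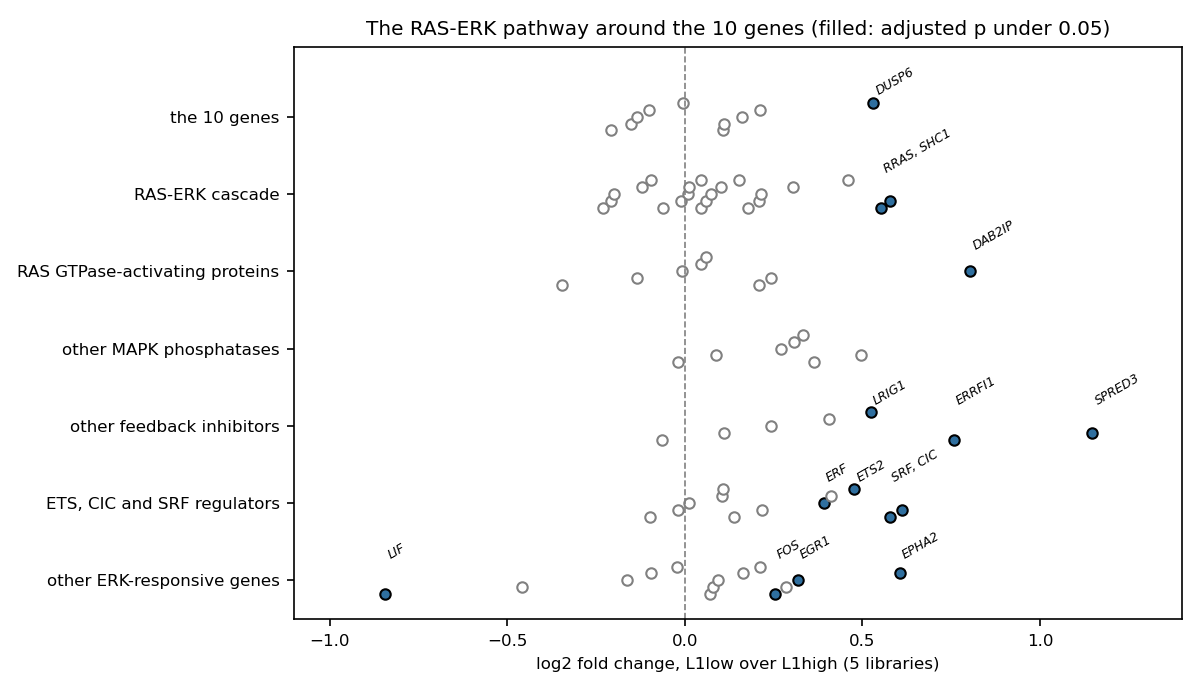
Log2 fold change, L1low over L1high over 5 libraries, of the 10 genes and of the 70 pathway genes in 6 lists, 1 point per gene. Filled points have an adjusted p under 0.05 and are named. DUSP6 is the filled point among the 10, and 13 of the 14 filled pathway points lie above 0, LIF (-0.84) being the exception.

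Some immediate early genes that respond to the handling of cells rose in L1low cells, as DUSP6 did. Of 11 sorting and heat stress genes, 5 were called higher and 0 lower by edgeR in L1low cells, with 7 higher and 1 lower at a p under 0.05 before adjustment (the calls being FOS, EGR1, FOSB, ATF3 and IER2), with a median log2FC of 0.25 and summed levels from 7862 to 8458 CPM in L1high and from 9786 to 10480.5 CPM in L1low libraries. Not called were JUN (0.14), JUNB (0.32) and the heat shock genes DNAJB1 (0.20), HSPA1A (0.078), HSPA1B (0.016) and HSPH1 (-0.24). FOS and EGR1 are also in the list of ERK-responsive genes. Of 12 proliferation genes, edgeR called 0 higher and 6 lower (CDK1, RRM2, PCNA, CCNA2, BUB1 and AURKA; 0 higher and 7 lower at a p under 0.05 before adjustment), with summed levels from 3413 to 3533 CPM in L1high and from 2935 to 3070 CPM in L1low libraries. Not called of the 12 were MKI67 (0.013), MCM2 (0.069), MCM5 (0.10), TYMS (-0.12), TOP2A (-0.13) and CCNB1 (-0.27). Among all genes, 4.41% were called higher and 3.15% lower over the same 5 libraries. The part of either list in the rise of DUSP6 was not tested.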

How the data were processed

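The data are read counts per gene that the authors deposited without normalization, from TruSeq stranded mRNA libraries of sorted L3.6pl cells. Paired-end reads were trimmed by the sequencing service, aligned to GRCh38 with BWA, which does not place reads across splice junctions, and assigned to Ensembl release 94 genes with featureCounts. The submitters' processing notes also list DESeq2. Symbols, positions and exon lengths came from GENCODE release 44 on GRCh38, which matched 19344 of 19469 identifiers, and promoter sequences from RefSeq (GRCh38.p14).

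Counts were compared in R 4.3.3 with edgeR 4.0.16 (TMM factors, filterByExpr, quasi-likelihood test, Benjamini-Hochberg adjustment over all genes, calls at an adjusted p under 0.05), over L1low replicates 1, 2 and 3 and L1high replicates 1 and 2, and then over all 6 libraries. The filter kept 19469 genes over the 5 libraries and 19467 over all 6. Standard errors are the size of the log2 fold change divided by the square root of F, and the 95% intervals use the degrees of freedom of the test. CPM values use TMM factors over all 6 libraries, and log2 CPM a prior count of 2. Intervals are for single genes.

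The 10 genes and all lists were chosen with earlier results of these data known. Genes named are the 10, L1CAM, called genes of the lists, the 2 most abundant genes not called in each pathway list, and the 5 genes most like DUSP6, some of which are not reported here. The likeness to DUSP6, the ratios and the motif words were descriptions.

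On simulated data for the 5-library comparison, fitted over 19469 genes, the test recovered 3 of 70 genes (4.29%) with a log2FC of 0.25, 30 of 65 (46.2%) with 0.5 and 65 of 65 with 1, with 4 of 102 calls wrong. The simulation changed 200 genes, whereas 1473 were called in the data. Its adjusted threshold was therefore stricter, and its recovery does not give that of the data. The counts of the 10 genes ran from 198 to 10436 per library and their standard errors from 0.07 to 0.12.

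The libraries numbered 3 deviated together from their group means (correlation of 0.43 over 12712 genes). Those numbered 1 and 2 had correlations of 0.18 and 0.12. L1high replicate 2 correlated more with L1low replicate 1 (0.21), and L1high replicate 1 with L1low replicate 2 at 0.12. Deviations from a group mean cancel out within the group, so the libraries numbered 3 shape these values. The correlations therefore cannot decide whether the libraries numbered 1 and 2 were paired by their number. The replicate number was taken as a block in 2 of the alternatives. The closest pair of libraries, L1high replicates 1 and 3, had a chi-square per degree of freedom of 3.66, above the 1 that counting error alone gives. The other alternatives were each library left out in turn, DESeq2 1.42.0, edgeR's exact test, RLE, upper-quartile and library-size scaling, no filter, and at least 10 counts in every library.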

Additional observations from a re-analysis of the deposited data

How the results depend on the processing

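Of 150 values of the log2 fold changes of the 10 genes under the alternatives, 141 kept direction and side of the threshold, 4 passed it (DUSP4 in 3, PHLDA1 in 1) and 5 changed sign, all for SPRY2. SPRY2 was at 0.0078 over all 6 libraries, 0.0096 with the replicate block over all 6, 0.0080 with the replicate block over the 5, 0.0062 without L1low replicate 3, and from -0.023 (without L1high replicate 2) to 0.062 (without L1high replicate 1) when single libraries were left out, with -0.014 without L1low replicate 1. DUSP6 stayed between 0.50 and 0.63, with adjusted p from 9.7e-08 to 0.018.

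Of the 10 genes, 1 was called lower over all 6 libraries, and with the replicate block over all 6 libraries 2 were called higher and 1 lower. When single libraries were left out, between 0 and 1 were called lower, and the median log2 fold change of the 10 ran from 0.0012 (without L1low replicate 1) to 0.091 (without L1high replicate 1), with 0.018 without L1high replicate 2 and 0.050 without L1low replicate 2. Among the pathway genes, from 6 (without L1high replicate 1) to 14 were then called higher, with 8 without L1low replicate 2. Over all genes, 859 were called higher and 614 lower. Leaving out 1 library gave from 340 to 941 higher and from 211 to 761 lower, the lowest without L1low replicate 2, and without L1high replicate 1 there were 425 and 249. The replicate block over all 6 libraries gave 1143 lower and edgeR's exact test 932 lower. Against the fit of the same libraries, the block changed the calls of PHLDA1 over all 6 and of SPRED3 over the 5 and no other call of a gene followed through the alternatives. The canonical transcript length was added after seeing the data. The cause of these changes was not tested. Leaving out the filter tests nothing, since all genes passed it over the 5 libraries. The 9 genes without a call are bounded by their intervals and are not shown to be equal. In the simulation differences of 0.25 on the log2 scale were rarely called, but its adjusted threshold was stricter than that of the data.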
